A study of Mus musculus with 2 samples.

Results

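Chromatin accessibility in mouse CD8+ T cells, named Peml-1 in the series title, was measured by ATAC-seq in 1 library titled treatment and 1 titled control, and the regions described here are the scattered peaks found in the treatment library only. They are treatment peaks on chromosomes 1 to 19 that overlap no control peak by 1 bp or more and whose summits fall in fixed 100 kb bins holding 1 or 2 such peaks. There were 3464 of them among 63351 treatment peaks, beside 799 clustered treatment-only peaks in bins with 3 or more and 59088 treatment peaks shared with control. Without the bin rule, 6.73% of the treatment peaks were treatment-only, and the scattered ones made up 5.47%. Apart from the name Peml-1, the labels do not say what was given or name a strain, age or sort, and the genotype field describes the assay. A separate treatment field reads "Combined treatment" for the library titled treatment and "Treatment" for the library titled control, which leaves the titles at odds with that field. Treatment and control below mean the libraries carrying these titles.

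With 1 library per group, no difference below has a check against replicate spread and no test was made. What follows sets 1 library against another, not treated against untreated cells. The members were chosen by their absence from the control list, so their fold enrichment, coverage and width, all of which bear on whether a peak is called or overlaps another, are given as descriptions. Ranges after shares are 95% Wilson intervals and take in counting error alone. Read totals were not used here; the lowest local background under a peak was 15.0 reads in treatment and 14.2 in control. Within 1 kb of the gene, Cd8a, which encodes a chain of the CD8 coreceptor, had 3 treatment and 4 control peaks, and Cd3e, a chain of the T cell receptor complex, had 5 and 4. No peak of either library lay there at the B cell gene Ms4a1 or at Ncr1, a receptor of NK cells, while Cd4 had 3 and 2 peaks and Csf1r, a receptor of macrophages, 1 and 2. Of the list of T cell receptor and CD8 identity genes, 29 of 33 had a peak at a gene end in treatment and 29 in control. The counts were 7 and 9 of 14 for B cell genes, 6 and 9 of 16 for myeloid genes and 2 and 3 of 10 for NK cell genes. They were 6 and 7 of 11 for dendritic cell genes and 4 and 5 of 10 for CD4 helper and regulatory T cell genes. Erythroid and stromal genes had 7 and 8 of 16, and neuron and liver genes 5 and 6 of 17. The part of such cells in the results was not tested.

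In ATAC-seq a transposase cuts DNA that is free of nucleosomes and inserts sequencing adapters there, so that reads pile up at promoters, enhancers and other bound elements. Promoters are open in many cell types, whereas distal elements within introns and between genes differ more between cell types and between states of one cell type. In CD8+ T cells such distal elements lie around genes for cytokines, homing receptors and transcription factors, often far from the gene start.

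Few members reached a promoter. Windows running from 250 bases before to 50 bases after annotated starts were touched by members at 29 places, which belong to 27 genes, while shared treatment peaks touched 13613 of the 31396 windows. These are counts of windows and not shares of peaks, with 3464 members and 59088 shared peaks. The windows include those of genes that are not protein-coding. The promoters of the 5 protein-coding genes with the highest fold enrichment among those with 100 bp or more inside a member are shown to let their base composition be read. Each sequence gives the 250 bases before the start, 5′ to 3′ along the gene, from RefSeq on GRCm38.p6, and capitals mark matches on either strand to 1 of 6 short motifs named below.
Wfdc18: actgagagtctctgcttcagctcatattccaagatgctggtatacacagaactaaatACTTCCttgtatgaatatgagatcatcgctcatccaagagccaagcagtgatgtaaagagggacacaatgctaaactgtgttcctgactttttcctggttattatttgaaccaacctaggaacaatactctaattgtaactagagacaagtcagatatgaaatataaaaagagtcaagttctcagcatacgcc
4930503B20Rik: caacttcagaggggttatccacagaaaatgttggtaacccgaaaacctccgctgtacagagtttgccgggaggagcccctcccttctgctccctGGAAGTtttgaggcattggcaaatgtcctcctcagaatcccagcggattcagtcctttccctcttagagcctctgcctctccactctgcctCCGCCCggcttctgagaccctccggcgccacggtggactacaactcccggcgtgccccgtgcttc
Tcf12: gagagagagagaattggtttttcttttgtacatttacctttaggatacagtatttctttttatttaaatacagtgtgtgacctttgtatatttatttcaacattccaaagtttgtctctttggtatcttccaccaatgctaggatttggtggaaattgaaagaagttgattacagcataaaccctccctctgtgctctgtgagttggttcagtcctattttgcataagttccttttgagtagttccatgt
4931408C20Rik: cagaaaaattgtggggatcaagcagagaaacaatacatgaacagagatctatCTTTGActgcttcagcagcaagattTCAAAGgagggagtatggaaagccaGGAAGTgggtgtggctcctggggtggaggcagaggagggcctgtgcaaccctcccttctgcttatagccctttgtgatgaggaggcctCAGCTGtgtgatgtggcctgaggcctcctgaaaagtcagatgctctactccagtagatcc
Tctex1d1: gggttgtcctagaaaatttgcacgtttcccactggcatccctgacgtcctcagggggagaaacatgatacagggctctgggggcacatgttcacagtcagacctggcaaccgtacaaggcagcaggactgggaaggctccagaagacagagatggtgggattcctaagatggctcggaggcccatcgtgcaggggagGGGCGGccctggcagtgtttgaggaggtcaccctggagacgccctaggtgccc
These sequences lie at chr11:83708754-83709003 (plus strand) for Wfdc18, chr3:146685486-146685735 (minus) for 4930503B20Rik, chr9:71896097-71896346 (minus) for Tcf12, chr1:26687461-26687710 (minus) for 4931408C20Rik and chr4:102978453-102978702 (plus) for Tctex1d1. Tcf12 encodes an E protein of T cell development, and the sequence shown stands before 1 annotated start of the gene.

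The promoters that members touched were poor in CpG. The Tcf12 and 4931408C20Rik sequences above hold 0 CpG in 250 bases, Wfdc18 holds 2, Tctex1d1 holds 7 and 4930503B20Rik holds 12. Over whole 300-base windows, the median was 4 CpG (quartiles 2 and 8) at the 29 touched by members and 22 (14 and 30) at those touched by shared peaks, against 7 (3 and 21) in all windows. Median GC content was 56% at windows touched by members, 62% at those touched by shared peaks and 53% in all. The 29 windows include 3 that overlap each other at 1 gene, Gm35219.

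The 6 motifs searched on both strands were GGAAGT, the core bound by ETS factors, TGTGGT for RUNX factors, TGANTCA for AP-1, CAGCTG for E proteins, CTTTGA for TCF and LEF factors, and GGGCGG for SP and KLF factors. The ETS letters stood in 11 of the 29 windows touched by members (37.9%), in 27.8% of windows touched by shared peaks and in 23.9% of all. The E-box letters stood in 8 (27.6%), 14.8% and 16.3%, and those of AP-1 in 4 (13.8%), 4.62% and 7.84%. The SP and KLF letters stood in 9 (31.0%) of the windows touched by members, in 65.8% of those touched by shared peaks and in 36.0% of all. The RUNX letters stood in 5 (17.2%), 12.5% and 16.7%, and the TCF letters in 2 (6.90%), 11.2% and 15.9%. With 29 windows, each share rests on few matches, and a match of these letters is not a bound site.

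Most members were weak peaks, but not all. The median fold enrichment over local background, the authors' own value, was 2.80 (quartiles 2.40 and 3.68) for members and 2.62 for clustered treatment-only peaks, against 7.91 for shared treatment peaks. The read coverage at the summit, recovered from fold and −log10 p as a whole number, had a median of 50 reads in members and 52 in clustered peaks, against 208 in shared peaks. Of the treatment peaks with a fold of up to 2.5, 30.02% were members, and the share was 22.5% from 2.5 to 3, 10.5% from 3 to 4, 4.21% from 4 to 6 and 1.27% from 6 to 10. Above a fold of 10 it was 0.149%, or 34 of 22800 peaks.

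**Figure D1:**
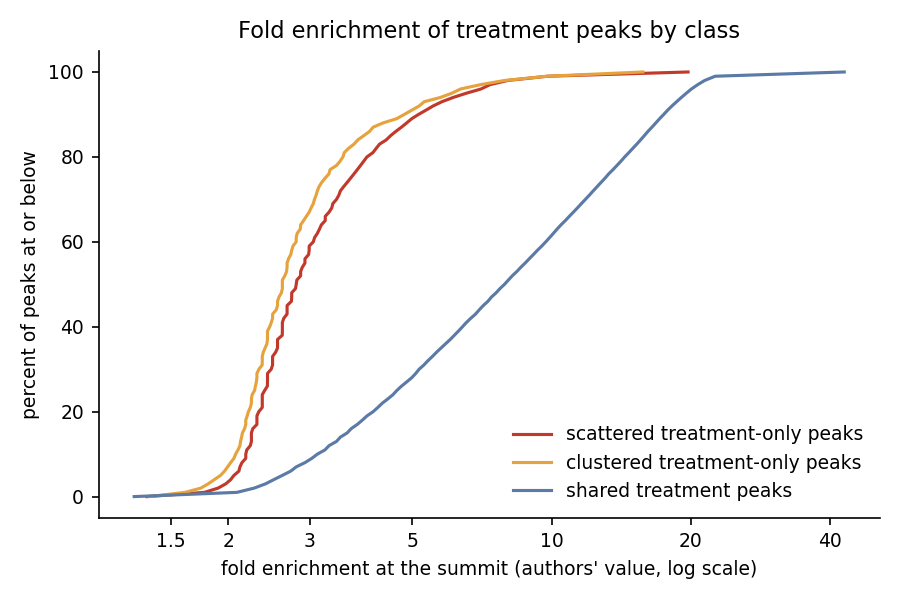
Cumulative percent of treatment peaks (y axis) at or below a fold enrichment (x axis, log scale) for scattered treatment-only, clustered treatment-only and shared peaks. The curves of both treatment-only classes lie close together, with medians of 2.80 and 2.62, left of the shared peaks with a median of 7.91.

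Members were narrow. Their median width was 271 bp (quartiles 221 and 361), against 560 bp (362 and 846) for shared treatment peaks, while clustered treatment-only peaks had 286 bp and control-only peaks 293 bp. Of the members, 1411 (40.7%) were 250 bp or narrower, against 8.46% of shared treatment peaks, and 27 (0.779%) were 1000 bp or wider, against 16.4%. The narrowest peak in the treatment list was 186 bp. Within each of 6 ranges of fold enrichment the members' median was also lower: 248 bp against 283 bp for shared peaks at a fold of up to 2.5, 285 bp against 398 bp from 4 to 6, and 497 bp against 801 bp above 10. Median coverage was lower in members in each range too, with 38 against 55 reads up to 2.5 and 221 against 551 above 10. The ranges thus do not compare peaks of equal strength. The widest members were a peak of 2502 bp in the body of Herc2, which encodes a large ubiquitin ligase, with a fold of 3.30, a peak of 2042 bp at 1672 bp from Nmi, an interferon-induced gene, with a fold of 4.24, and a peak of 1915 bp at 38354 bp from Gm46752, with a fold of 3.69.

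Members lay inside genes and between them far more than at gene ends. Gene bodies, meaning spans of protein-coding genes away from their ends, held 56.1% (54.4 to 57.7%) of the members, against 44.9% (44.5 to 45.4%) of shared treatment peaks. Gene ends, which are the stretches up to 1 kb from where a span starts or stops, held 154 members, or 4.45% (3.81 to 5.18%), against 21.3% (20.97 to 21.6%) of shared peaks. The remaining 39.5% of members and 33.8% of shared peaks lay between genes. Clustered treatment-only peaks had 5.63% at gene ends and control-only peaks 7.56%. In gene bodies lay 52.7% (49.2 to 56.1%) of clustered and 51.0% (50.4 to 51.7%) of control-only peaks, also above the share of shared peaks. Counting annotated starts alone, on the 18 chromosomes with starts used here, 81 of 3355 members (2.41%, 1.95 to 2.99%) had their summit within 1 kb of a start, against 19.8% of shared treatment peaks. The median distance of a member to the nearest start was 22154 bp, against 13190 bp for shared peaks.

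The share at gene ends was lower in members in each of the 6 ranges of fold enrichment, in which their median coverage was lower as well. At a fold of up to 2.5, gene ends held 7.81% (6.40 to 9.51%) of members and 15.8% (14.4 to 17.4%) of shared peaks. From 3 to 4 they held 1.93% (1.15 to 3.21%) of members and 11.1% (10.3 to 11.9%) of shared peaks. Above 10 they held 1 of 34 members (2.94%, 0.521 to 14.9%) and 35.4% (34.7 to 35.98%) of shared peaks. The share depended on what counts as shared: taking peaks with summits over 150 bp apart as unshared gave 5850 members with 14.9% at gene ends, and with the control list shortened to equal length 6518 members had 7.72%.

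**Figure D2:**
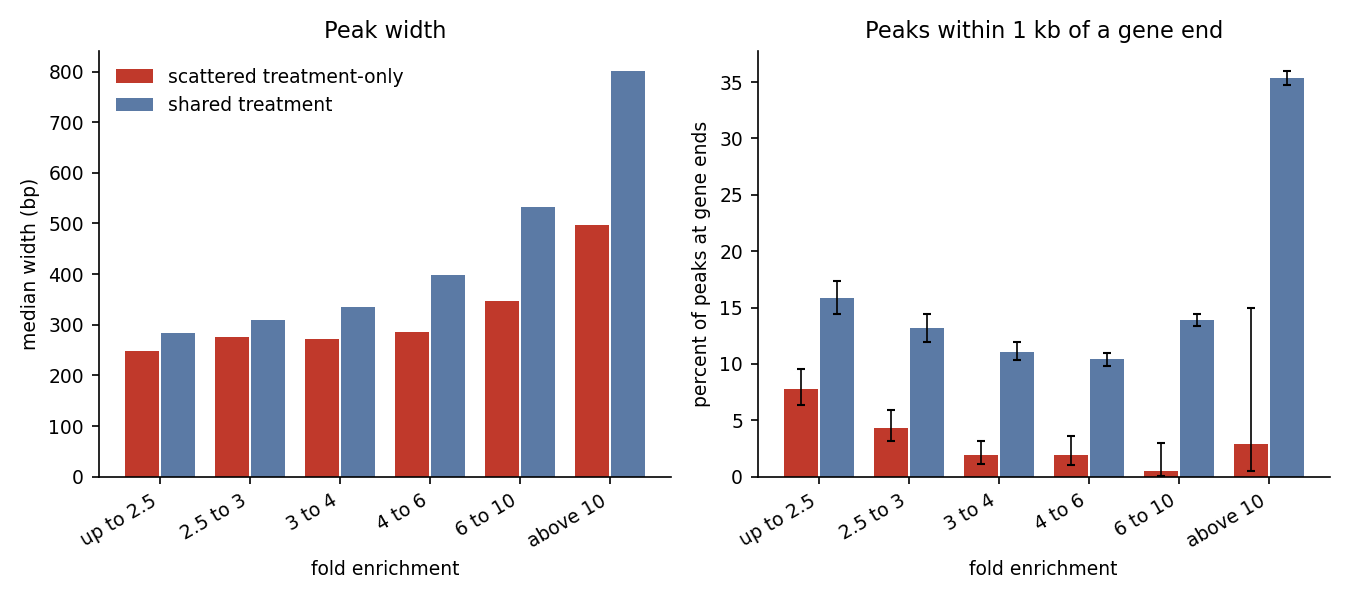
Median peak width (left, bp) and percent of peaks within 1 kb of a gene end (right, with 95% Wilson intervals) by range of fold enrichment, for scattered treatment-only peaks and shared treatment peaks. In each range the members are narrower and less often at gene ends, from 7.81% against 15.8% at the lowest folds to 2.94% against 35.4% above 10. Their median coverage is also lower in each range.

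Between genes, members had a higher median distance than shared peaks and than both other unshared classes. The median distance of intergenic members to the nearest protein-coding gene was 23542 bp (quartiles 7215 and 74688), against 17296 bp (6551 and 49265) for intergenic shared peaks. That median was 17486 bp for clustered treatment-only peaks and 20574 bp for control-only peaks. In all, 276 members (7.97%, 7.11 to 8.92%) were more than 100 kb from any protein-coding gene, against 4.51% (4.34 to 4.68%) of shared peaks. Clustered treatment-only peaks had 7.13% (5.55 to 9.13%) and control-only peaks 6.49% (6.19 to 6.80%) that far out, so this share is not particular to the members. The farthest were a 191 bp peak at 1639944 bp from Grik2, a glutamate receptor gene, a 363 bp peak at 1635732 bp from Pik3c3, which encodes a lipid kinase of autophagy, and a 333 bp peak at 888098 bp from Zfp386. The peak nearest to Zfp386, with a fold of 7.06, lies among the immunoglobulin heavy chain segments of chromosome 12. Of the 1367 intergenic members, 185 (13.5%, 11.8 to 15.4%) fell within an annotated long noncoding RNA gene, against 19.3% (18.7 to 19.8%) of intergenic shared peaks and 20.4% (16.4 to 25.1%) of intergenic clustered peaks.

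Most members lay more than 1 kb from the nearest control peak. The rule drops every treatment peak that overlaps a control peak, so a lack of members at those edges is partly fixed in advance. The gap between a member and the nearest control peak had a median of 4198 bp (quartiles 1426 and 11586), against 4286 bp for clustered treatment-only peaks. It was at most 200 bp for 57 members (1.65%), at most 500 bp for 295 (8.52%) and at most 1 kb for 641 (18.5%), while 949 (27.4%) were more than 10 kb away and 188 (5.43%) more than 100 kb. The member nearest to Pik3c3 was 1636819 bp from any control peak. The 100 kb bins that held members had a median of 6 treatment peaks, members included, and 7 control peaks, against 3 and 5 in all 13977 bins with a peak of either library. The rule puts at least 1 treatment peak in each bin with a member, so these medians are a description. Of the 2968 bins with a member, 273 (9.20%) held no control peak at all, against 2.02% of all bins with a peak. A treatment peak in a bin without control peaks is nearly always treatment-only by construction.

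**Figure D3:**
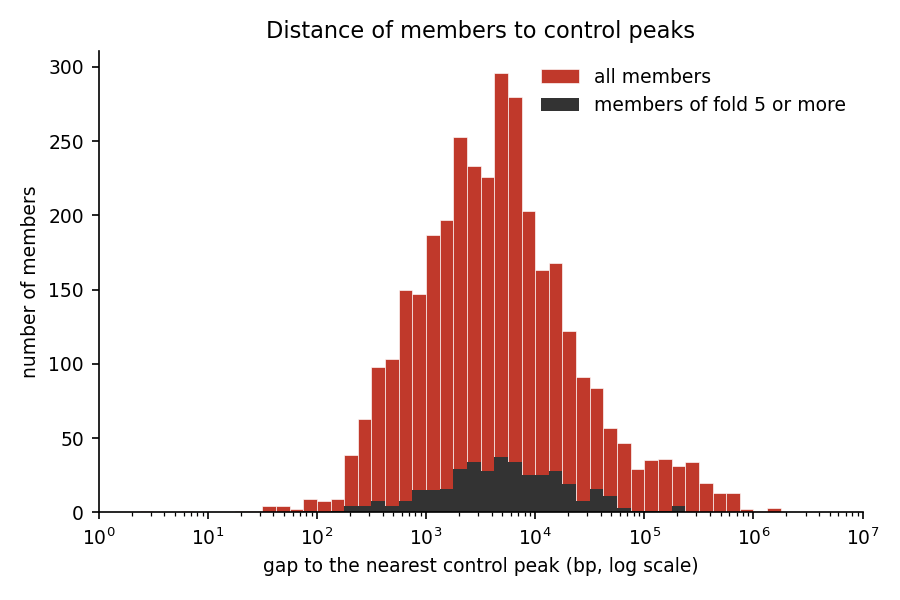
Number of members (y axis) by the gap in bp to the nearest control peak (x axis, log scale), for all 3464 members and, in dark, the 380 with a fold of 5 or more. Both distributions peak at several kb, with medians of 4198 and 4871 bp, and few members lie within 200 bp of a control peak.

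Members were scattered by the rule, yet many had a neighbour. Another treatment-only peak had its summit within 10 kb of 355 members (10.2%) and within 100 kb of 1671 (48.2%). These include the 992 members in pairs, whose neighbour is in the same bin, and others with a neighbour across a bin border. Single peaks filled 2472 bins and pairs filled 496, in which the summits were a median of 18234 bp apart (quartiles 5505 and 39049), within 1 kb in 35 bins. Just inside the bin limit, the 992 peaks in pairs had a median fold of 2.74 and a median width of 278 bp, and just outside, the 366 peaks in bins of 3 had 2.70 and 278 bp. Nearest genes with predicted or clone-based names (Gm, Rik or LOC) made up 3.32% at single members, 3.93% at pairs, 4.92% in bins of 3 and 36.3% in bins of 4 or more, against 3.23% for shared treatment peaks. By chromosome, members were between 4.16% (chromosome 11) and 6.68% (chromosome 3) of the treatment peaks.

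A small group of members was strong. A fold of 10 or more was reached by 34 members (0.982%), against 38.5% of shared treatment peaks, and a fold of 5 or more by 380 (10.97%), against 71.7%. The 34 had a median width of 497 bp, coverages from 162 reads up with a median of 221, and gaps to the nearest control peak with a median of 6078 bp, over 1 kb in 31. In gene bodies lay 20, between genes 13 and at a gene end 1. Alone in their bins were 24 of them.

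The highest fold, 19.7 at a coverage of 322 reads, belonged to a 198 bp peak at chr11:121982342-121982539, 57127 bp from Gm9631. The next, with 19.5 and 353 reads, was a 389 bp peak in the body of Xpo4, which encodes a nuclear transport receptor, at chr14:57611127-57611515. A 648 bp peak in Nsf, an ATPase of vesicle fusion, had a fold of 16.5 and 315 reads (chr11:103860204-103860851). All 3 were at least 4360 bp from a control peak.

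Ms4a4a, of the membrane-spanning MS4A family, had an 828 bp peak at 4097 bp from its span with a fold of 16.0 and 327 reads. Nlk, which encodes a kinase that acts on TCF and LEF factors, held a 532 bp peak with a fold of 16.0, at 23167 bp from any control peak. In Supt3, of the SAGA coactivator complex, a 910 bp peak had a fold of 14.9 and stood 48236 bp from any control peak. Both were alone among treatment-only peaks in their bins, as were the peaks in Dock4, a regulator of small GTPases (14.5), Fntb, a subunit of farnesyltransferase (14.3), and Whrn, a scaffold protein of hair cells (13.5). Intergenic peaks with folds of 14.8, 13.5 and 13.3 had Enc1, D16Ertd472e and Cox10, an enzyme of haem A synthesis, as nearest genes. These 12 peaks had coverages between 215 and 353 reads.

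Some strong members came in pairs in 1 gene. Dcaf5, which encodes a substrate receptor of a ubiquitin ligase, held peaks with folds of 12.6 and 10.2 in 1 bin, at chr12:80345398-80345738 and chr12:80377590-80377880. Phf14, of a family of chromatin readers, held peaks with folds of 7.60 and 9.22. Man1a2, an enzyme that trims mannose from glycoproteins, had a peak with a fold of 12.2 in its body and 1 with 6.03 at 104 bp from its end. In the bins of Xpo4 and Gm9631 the second peak was weak, with folds of 2.89 and 2.33.

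At gene ends, strong members were rare. Wfdc18, which encodes a secreted protein with a WAP domain, led with a fold of 11.6 at 125 bp from the end of its span, where the first sequence above was printed, and the nearest control peak was 19295 bp away. After Man1a2 came Slc39a14, a metal ion transporter (5.30), Abce1, a ribosome recycling factor (5.23), and 4930503B20Rik (5.04). Tdrd3 (4.86), Vcpip1 (4.80) and Gmfb (4.74) completed the 8 of highest fold. The Tcf12 member is counted in the gene body, 51906 bp from the end of the span, since the start it covers is an internal one. With a fold of 4.44 and 78 reads, it covered 282 of 300 bases of the promoter window and lay 720 bp from a control peak.

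Members were spread over many genes. As nearest protein-coding gene, 2671 of 20665 genes (12.9%) had at least 1 member: 2076 had 1, 460 had 2 and 135 had 3 or more. The 10 genes with most members inside their span that are named here ranged in length from 135 to 1612 kb. Inpp4b, a phosphatase of phosphoinositide signalling with a span of 792 kb, held 8 members with folds from 2.21 to 11.7 among 69 treatment peaks, and 87 control peaks. Foxp1, a transcription factor that keeps naive T cells quiescent, held 6 with folds from 1.56 to 2.87 among 66 treatment peaks, and 67 control peaks. Fhit, with a span of 1612 kb, held 5 of 15 treatment peaks (folds up to 9.35), Fryl 5 of 15 (up to 4.43) and Zfp993 5 of 9 (up to 2.68).

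Several genes held 4 members each. Camk2d, a calcium-dependent kinase, had folds from 2.99 to 9.53, Cers6, a ceramide synthase, from 2.49 to 7.23, and Cdk19, a kinase of the Mediator complex, from 3.39 to 4.86. Dym had folds from 2.31 to 4.95, and Celf2, an RNA-binding protein abundant in T cells, from 2.22 to 4.74. These 10 genes were picked for their treatment-only peaks, which favours treatment in a count of all peaks, whereas over chromosomes 1 to 19 there were 63351 treatment and 83295 control peaks. Treatment and control peaks in the span numbered 18 and 13 in Cdk19, 15 and 11 in Fryl, 9 and 5 in Zfp993, 15 and 14 in Fhit and 15 and 14 in Cers6. Camk2d had 20 and 21, Dym 21 and 23, and Celf2 22 and 26. Other genes also held 4 members.

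Taken over all folds, members near T cell genes were about as frequent as elsewhere. Of 167 genes in 6 lists of T cell genes, 57 (34.1%) were the nearest gene of at least 1 member, against 12.9% of all protein-coding genes. Such a share grows with the number of peaks a gene has. Of the 2131 treatment peaks with a listed T cell gene as nearest gene, 104 (4.88%, 4.04 to 5.88%) were members, close to the 5.47% of all treatment peaks. Put the other way, 3.002% (2.48 to 3.62%) of members had such a nearest gene, against 3.35% (3.20 to 3.49%) of shared treatment peaks and 6.26% (4.78 to 8.16%) of clustered ones. Up to a fold of 2.5 this share was 3.39% of members against 6.36% of shared peaks, and from 2.5 to 3 2.67% against 4.18%. It was 3.03% against 3.50% from 3 to 4, 2.59% against 3.95% from 4 to 6 and 2.67% against 3.59% from 6 to 10. Above 10 it was 5.88% (2 of 34 members) against 2.45%. By bin count, a listed T cell gene was nearest at 2.51% of single members and 4.23% of members in pairs. Outside the bin limit this was 4.92% in bins of 3 and 7.39% in bins of 4 or more. Linking peaks by gene spans with 10 kb on each side, in place of the nearest gene, gave 1.91% of members. No share by that rule is given here for shared peaks, so it cannot be set against their 3.35%.

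By list, members made up 6.02% of the treatment peaks at migration and residency genes, 5.92% at naive and memory genes and 5.38% at T cell receptor and CD8 identity genes. They made up 3.95% at effector genes, 3.83% at genes of inhibitory receptors and exhaustion and 3.10% at activation and costimulation genes. The intervals of all 6 overlapped, with the lowest bound at 1.74% and the highest at 9.55%. Of the 104 members, 5 lay at gene ends, at Prkcq, Itgb7, Zap70, Cd8b1 and Id2.

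**Figure D4:**
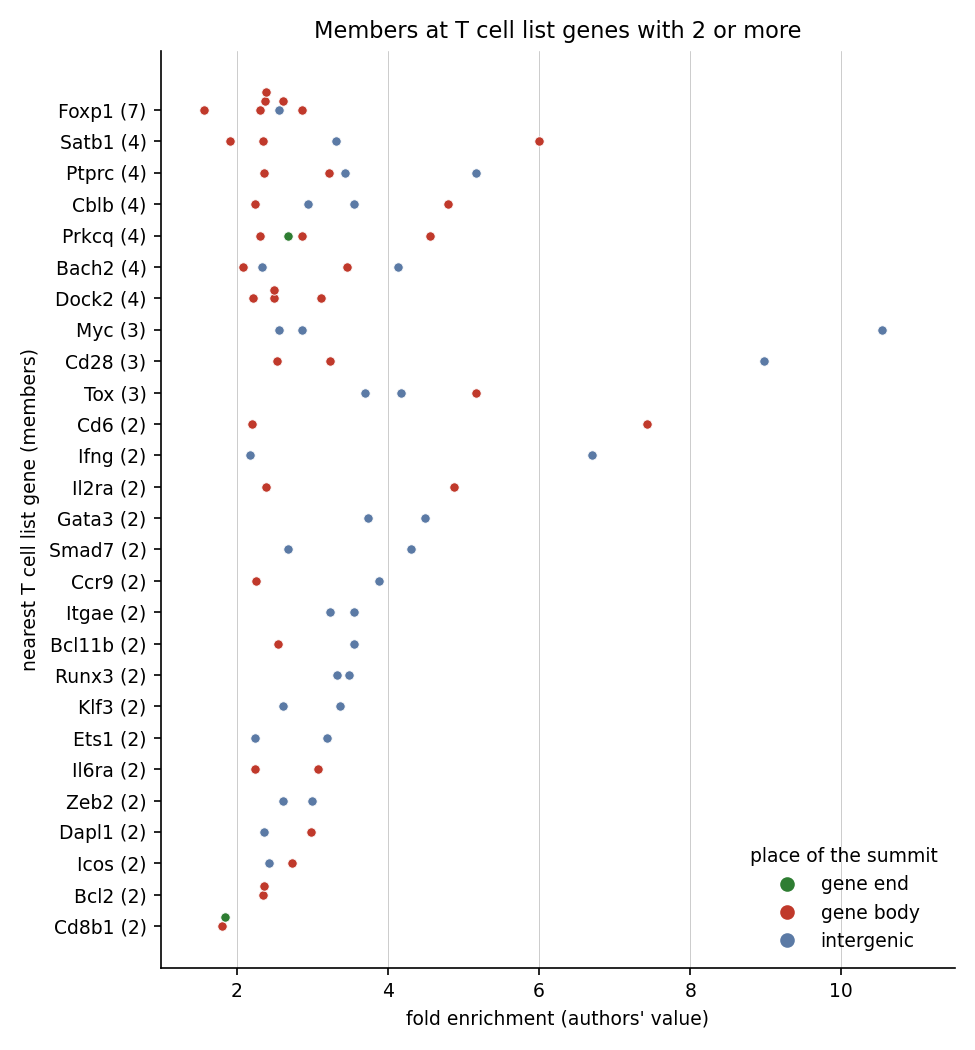
Fold enrichment (x axis) of each member whose nearest gene is a listed T cell gene with 2 or more members (y axis, number of members in parentheses), coloured by the place of the summit; points at nearly equal folds are set slightly above each other. Most lie under a fold of 5, and the highest, at Myc and Cd28 with 10.5 and 8.97, lie between genes.

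Among naive and memory genes, 12 of 23 had a member. The strongest was a 287 bp peak with a fold of 11.6 and 185 reads at chr3:115734840-115735126, 19976 bp from S1pr1, the receptor for lymphocyte exit from lymph nodes, and 4952 bp from a control peak. Cd28, the main costimulatory receptor, had 3 members, 2 inside the gene with folds of 2.53 and 3.24 and 1 at 40223 bp with 8.97. Satb1, a chromatin organiser of T cells, had 4, among them a 224 bp peak in its body with a fold of 5.997, and Bach2, a repressor of effector genes, had 4 with folds from 2.08 to 4.14. Lef1, a partner of TCF1, had 1 at 85974 bp with a fold of 4.20 and 306 reads, and Tcf7, which encodes TCF1, 1 at 38353 bp with 3.14. The member at Ccr7, a receptor for lymph node entry, had a fold of 1.68 but a width of 793 bp. At Foxp1 7 members, 1 of them outside the gene, stayed under a fold of 3.

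Among T cell receptor and CD8 identity genes, 18 of 33 had a member. Cd6, a receptor that tunes T cell receptor signals, had a 643 bp peak in its body with a fold of 7.42 and a second with 2.21. Ptprc, which encodes the phosphatase CD45, had 4 members with folds from 2.36 to 5.17, and Prkcq, a kinase downstream of the receptor, 4 from 2.31 to 4.55. Near Cd2, an adhesion receptor, a peak at 42265 bp had a fold of 5.10. Gata3, a transcription factor of T lineage cells, had members at 319974 and 389270 bp, with folds of 4.49 and 3.74. Cd8b1, a chain of CD8, had 2 with folds of 1.81 and 1.84, and Cd3e 1 with 2.93.

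Activation genes had members at 5 of 31 genes. A 351 bp peak with a fold of 10.5 and 178 reads at chr15:61481960-61482310 had Myc, a driver of T cell growth, as nearest gene at 503245 bp, and a control peak stood 349 bp away. The other 2 members at Myc had folds of 2.55 and 2.87. Stat4, which carries IL-12 signals, held a peak with a fold of 7.04 and 112 reads, and Cblb, a ubiquitin ligase that restrains activation, had 4 with folds from 2.24 to 4.80.

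At effector genes, members were found at 7 of 30. Near Fasl, a ligand that kills target cells, an 806 bp peak at 75589 bp had a fold of 7.36 and 358 reads. Ifng, the cytokine interferon gamma, had a 365 bp peak at 15580 bp with a fold of 6.70 and a weaker one, with 2.18, at 195965 bp. Il2ra, a chain of the IL-2 receptor, had 2 in its body, the stronger with a width of 547 bp, a fold of 4.88 and 292 reads at 305 bp from a control peak, the other with a fold of 2.38.

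At genes of inhibitory receptors and exhaustion, 6 of 24 had a member. Tox, a transcription factor of exhausted T cells, had 3, with a 599 bp peak in its body at a fold of 5.17, only 190 bp from a control peak, and 2 at 452117 and 368038 bp with folds of 4.18 and 3.70. Ctla4 and Lag3, both inhibitory receptors, had 1 each, with folds of 3.004 and 2.91. Among migration and residency genes, 9 of 26 had a member. Dock2, needed for lymphocyte movement, had 4 in its body with folds from 2.21 to 3.12. Itgae, the integrin CD103 of resident cells, had 2 just outside its span, at 1153 and 3309 bp, with folds of 3.55 and 3.24. Smad7, an inhibitor of TGF-beta signals, had members with folds of 4.30 and 2.68, and Ccr9, a gut homing receptor, members with 3.88 at 4128 bp and with 2.26 in its body.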

How the data were processed

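Per the submitters' processing notes, reads were processed with cutadapt 2.5, Bowtie2 2.3, Picard 2.20 and MACS2 on mm10; settings and filters are not given in the sources used here. Each library has 1 deposited narrowPeak list, called per library, with the authors' score, fold enrichment (a ratio), −log10 p-value, −log10 q-value and summit offset; the lowest deposited −log10 q was 2.00 in each.

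Overlaps, gaps and bins were computed in Python 3.11.15 and checked on simulated peaks. Gene spans were those of 20665 protein-coding genes on chromosomes 1 to 19 in RefSeq GRCm38.p6, the assembly of mm10. Coverage was the whole number that met a peak's fold and −log10 p under a Poisson background within 0.001, which was found for 100% of members. Lists held 286 genes, 7 without a match among these spans. Members and lists were chosen with earlier results of these data known. Named peaks were the 12 of highest fold, 8 at gene ends, up to 20 at T cell genes (from a fold of 3.51), the 3 widest and the 3 farthest, 5 bins of pairs and up to 10 genes with most members. Other genes with members at T cell lists, and promoters touched, were named after their values were seen.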

Additional observations from a re-analysis of the deposited data

Results flagged for a closer look

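Peaks on unplaced and unlocalised contigs, which entered no comparison, were more numerous in treatment (183) than in control (141), while the whole lists, contigs included, held 65098 treatment and 85285 control peaks. Of the 183, 68 overlapped no control peak, beside 4263 of 63351 treatment peaks (6.73%) on chromosomes 1 to 19.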

How the results depend on the processing

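Moving the bins by 50 kb, bins of 200 kb and bins with exactly 1 treatment-only peak gave 3474, 3005 and 2472 members, against 3464. At T cell list genes lay 3.17%, 2.63% and 2.51% of them, against 3.002%. Median width, median fold and the shares at gene ends and in gene bodies stayed close to those reported. The overlap rule mattered more. With summits within 150 bp as shared there were 5850 members, with a median width of 373 bp, a median fold of 3.24, 14.9% at gene ends and 50.2% in gene bodies. With 50% reciprocal overlap there were 6425, with 279 bp, 3.24, 9.63%, 51.0% and 2.26% at T cell list genes. With the control list shortened by p-value to the length of the treatment list there were 6518, with 299 bp, 3.004, 7.72%, 53.3% and 2.24%. These settings count as unshared some peaks that touch or lie at control peaks of the full list. At a −log10 q of at least 5 the median width was 282 bp, the median fold 3.11 and the gene-end share 3.65%. With all annotated genes, gene ends held 8.05%, gene bodies 60.5% and T cell list genes 1.85%, since more genes can be nearest. Gene ends of 2 kb held 9.04%, and gene spans with 10 kb on each side 1.91% of members at T cell genes. No paired analysis was possible because each group has 1 library. The lowest summit coverage was 31 reads among members and 29 among control peaks, so sites below about that level were not detectable at this depth.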

Other observations

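Antigen receptor loci, a look chosen after the data were seen, are set beside the 5.47% of all treatment peaks that were members. The segments of Tra and Trd on chromosome 14 had 7 members among 208 treatment peaks (3.37%, with 246 control peaks), with folds from 1.73 to 7.04, and those of Trb had 2 among 46 (4.35%, with 56 in control). Trg had 1 among 19 (5.26%, with 21 in control), with a fold of 4.44. The immunoglobulin heavy chain segments of chromosome 12 had 6 among 150 (4.0%, with 181 in control), and the kappa segments 1 among 7 (14.3%, with 12 in control), with a fold of 5.23.

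Lists of other cell types had 19 members among 348 treatment peaks (5.46%, 3.52 to 8.37%), next to 5.47% over all treatment peaks. The highest share was in the list of neuron and liver genes, with 6 of 46 (13.04%, 6.12 to 25.7%), followed by erythroid and stromal genes with 5 of 61 (8.20%, 3.55 to 17.8%). Rbfox3, a splicing factor of neurons, had 4 members with folds of 5.80, 3.46, 3.12 and 2.31, the strongest 3 inside the gene. Pou2af1, a coactivator of B cells, had 1 inside the gene with 5.42. The NK cell genes had 0 members among 29 treatment peaks (upper Wilson limit 11.7%). Among cell cycle genes, Ccnd2, which encodes cyclin D2, had 3, with folds of 5.03, 2.67 and 2.62. On X and Y, which the rule leaves out, 122 of 1559 treatment peaks met its other terms, beside 3464 of 63351 (5.47%) on chromosomes 1 to 19.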
